A study of Homo sapiens with 28 samples.

Results

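Gene deserts are long stretches of the genome with no protein-coding gene. Here a desert was autosomal hg38 sequence more than 500 kb from every protein-coding gene of GENCODE release 44, with long non-coding RNA (lncRNA) genes and assembly gaps taken out. The rule used the annotation and no measured value, and it gave 263 deserts on 22 autosomes. Their usable sequence came to 229 Mbp, or 8.30% of the gap-free autosomes, with a median of 485 kb per desert, and 69 of them held 1 Mb or more. The annotation placed 936 pseudogenes inside them. Peaks were counted in a desert when their centre lay in its usable sequence. The main comparison was near-gene intergenic sequence (859 Mbp within 500 kb of a coding gene, outside coding and lncRNA genes).

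The 10 peak lists came from ChIP-seq in U2OS cells, an established human osteosarcoma line, either untreated (noUV) or 3 h after 20 J/m2 of UV-C. H3K36me2 was immunoprecipitated from WT cells, with 2 replicates per condition. The carboxy-terminal domain of ASH1L (CTD), carrying a Flag tag, was immunoprecipitated with anti-Flag from ASH1L-KO cells transfected with it, with 3 replicates per condition. The CTD is therefore a transfected fragment in cells without full-length ASH1L, the KO cells were grown from individual CRISPR colonies, and differences between the H3K36me2 and CTD lists cannot be told apart from the difference in cell line. The labels number the replicates without tying a number to a shared day or culture, so the p-values below measure the spread between these lists.

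As background, H3K36me2 is the dimethyl mark on lysine 36 of histone H3. It is laid down mainly by the NSD enzymes and ASH1L, it spreads over broad intergenic domains as well as gene bodies, and it is bound by the PWWP domain of the DNA methyltransferase DNMT3A. ASH1L is a Trithorax-group methyltransferase whose carboxy-terminal part holds the catalytic SET domain. The same part also holds a bromodomain, a PHD finger and a BAH domain, which are modules that bind chromatin. Gene deserts are AT-rich, replicate late and lie largely in B-compartment or lamina-associated chromatin, and some hold distant enhancers of the developmental genes at their edges.

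Desert sequence itself is shown for 6 sites with a peak in every list of an assay, or in every list of only 1 condition. A site is a set of overlapping peaks from the lists of an assay, and the sites were ranked by the lowest fold enrichment (ChIP over control, as called by MACS2) among their lists. Each line gives 150 bases of the hg38 plus strand at the core of the site, 5′ to 3′, with every CG dinucleotide in capitals.
H3K36me2 in every list, TMEFF2 to SLC39A10 desert, chr2:193102095-193102244: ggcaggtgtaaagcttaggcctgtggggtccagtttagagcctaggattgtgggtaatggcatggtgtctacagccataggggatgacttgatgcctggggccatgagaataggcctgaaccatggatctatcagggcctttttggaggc
H3K36me2 in every list, IFTAP to LRRC4C desert, chr11:38462077-38462226: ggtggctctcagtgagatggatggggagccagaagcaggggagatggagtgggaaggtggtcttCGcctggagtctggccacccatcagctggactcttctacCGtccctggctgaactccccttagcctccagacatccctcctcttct
CTD in every list, NETO1 to FBXO15 desert, chr18:73372517-73372666: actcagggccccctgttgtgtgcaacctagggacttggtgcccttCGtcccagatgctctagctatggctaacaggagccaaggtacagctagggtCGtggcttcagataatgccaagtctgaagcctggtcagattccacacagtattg
CTD in every list, IGFBP7 to ADGRL3 desert, chr4:59714051-59714200: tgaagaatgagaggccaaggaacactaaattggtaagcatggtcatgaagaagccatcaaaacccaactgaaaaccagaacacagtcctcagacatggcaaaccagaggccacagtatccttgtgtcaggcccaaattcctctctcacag
CTD only after UV, SEL1L to FLRT2 desert, chr14:82776853-82777002: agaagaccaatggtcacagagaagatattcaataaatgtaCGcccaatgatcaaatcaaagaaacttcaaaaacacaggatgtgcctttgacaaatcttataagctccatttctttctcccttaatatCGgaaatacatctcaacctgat
CTD only without UV, PCDH7 to ARAP2 desert, chr4:35296721-35296870: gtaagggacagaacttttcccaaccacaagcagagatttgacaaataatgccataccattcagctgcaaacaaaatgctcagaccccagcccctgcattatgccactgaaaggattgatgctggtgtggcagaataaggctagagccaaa
No annotated gene of any kind overlapped these 6 sites. The TMEFF2 to SLC39A10 site lay 906 kb from TMEFF2, the nearest coding gene, and its fold enrichment was 3.23 and 3.20 without UV and 3.35 and 4.64 after UV. Its 150 bases had 53.3% GC and no CG, and the IFTAP to LRRC4C site, 1652 kb from LRRC4C, had 60% GC and 2 CGs. The CTD sites were weaker: the lowest fold enrichment of the NETO1 to FBXO15 site was 1.88 over the 6 lists, and no single base of it lay under the peak of every list. The median fold enrichment of desert CTD peaks was 1.73 to 1.83 over the lists, so recurrence rather than strength set this site apart. The IGFBP7 to ADGRL3 site shared 63 bases over the 6 lists and the SEL1L to FLRT2 site 67 over the 3h lists, fewer than the 150 shown. The PCDH7 to ARAP2 site shared 202 over the noUV lists.

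Each list held exactly 500000 peaks on 23 chromosomes, with a lowest −log10 p of 1.22 to 1.42, so a list shows how peaks were distributed and not how many the cells had. More peaks in deserts therefore means fewer elsewhere in the same list, and the lists do not give the number of reads behind them. As a check on the transfection, 22 to 24 of the 27 coding exons of ASH1L lay under a peak in every CTD list, with a highest fold enrichment of 5.87 to 41.2, against 0 of 27 in every H3K36me2 list. The highest fold enrichment in deserts was 4.12 to 4.79 for H3K36me2 and 2.87 to 3.34 for the CTD.

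Deserts were not empty of called peaks of either assay. Without UV the 263 deserts held 125 and 118 H3K36me2 peaks per Mbp in the 2 lists, and 138.9 and 136.7 after UV. The CTD lists held 79.8, 89.6 and 103.8 peaks per Mbp without UV and 92.1, 86.4 and 74.2 after UV. The H3K36me2 conditions did not overlap and the CTD conditions did. Only 4 of the 263 deserts held no peak in any of the 10 lists. Desert CTD peaks were weakly called: in every CTD list 0 of them had a −log10 q of 1.3 or more. Near genes the CTD lists held 0 or 1 such peaks each, while deserts held 2596 to 3151 such H3K36me2 peaks per list. A −log10 p of 2 or more was reached by 5.89% to 9.58% of desert CTD peaks, and by 5.84% to 8.35% near genes. For desert H3K36me2 peaks the share was 40.0% to 47.4%.

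Peaks were sparse in the centromeric deserts. In 23 deserts 10% or more of the usable sequence was alpha satellite, the tandem repeat of human centromeres, and these satellite-rich deserts made up 73.3 Mbp of which 72.1% was alpha satellite. They held 9.41 to 10.1 H3K36me2 peaks per Mbp and 15.3 to 18.5 CTD peaks per Mbp over the lists. In the largest desert of all, chr7:57973560-63498848 between the zinc-finger genes ZNF716 and ZNF722, 5.12 Mbp of usable sequence held 6 and 8 H3K36me2 peaks without UV and 4 and 3 after UV, against 55 to 75 CTD peaks. Next came chr18:15354668-20444611 between ANKRD30B and ROCK1, 99.5% satellite, with 3 and 1 H3K36me2 peaks without UV, 8 and 7 after UV, and 4 to 11 CTD peaks. Then came chr17:22204613-26794075 between KCNJ18 and WSB1, held 34 to 41 H3K36me2 peaks and 73 to 96 CTD peaks. Reads in tandem repeats are hard to place uniquely and the authors' mapping quality filter removes them, and how far this lowered the counts was not tested.

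The other 240 deserts are called satellite-poor. They comprised 156 Mbp with 35.9% GC and 5.97 CG dinucleotides per kb, against 41.2% and 9.58 in near-gene intergenic sequence. H3K36me2 peaks stood at 180.0 and 169 per Mbp without UV and 199.8 and 197 after UV. For the CTD the values were 109, 124 and 144 without UV and 127, 120 and 102 after UV.

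**Figure D1:**
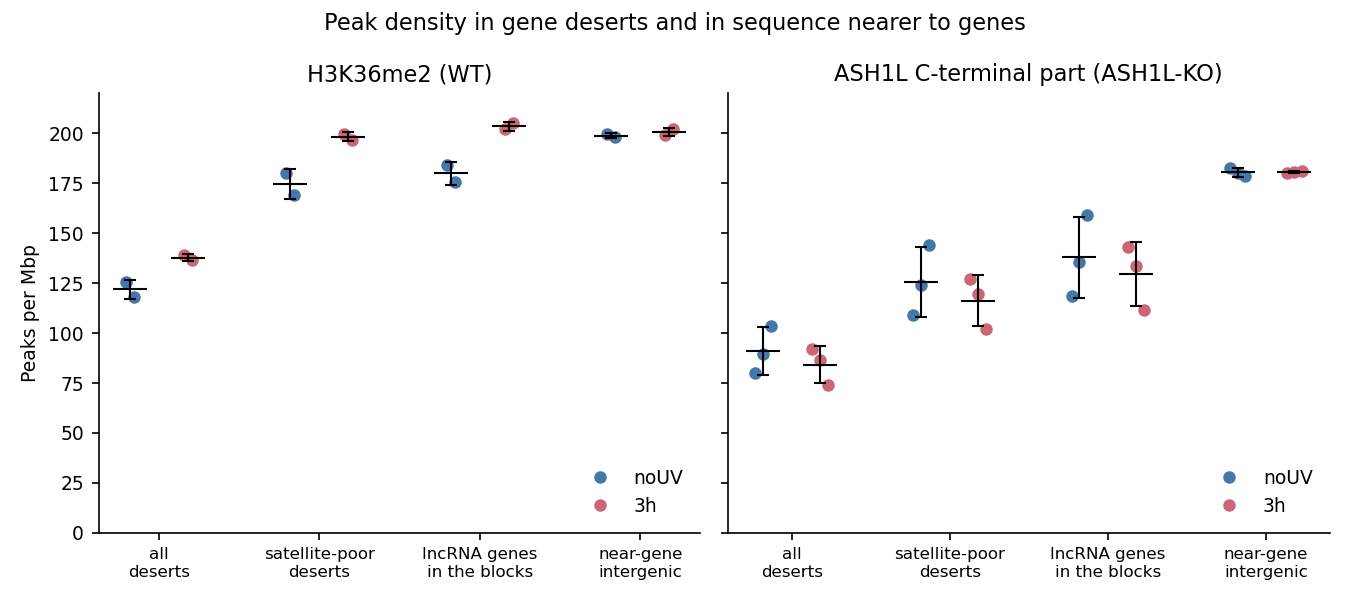
Peaks per Mbp in all deserts, satellite-poor deserts, lncRNA genes of the satellite-poor blocks and near-gene intergenic sequence, with each point a list, long lines at the mean and bars of 1 SD (n = 2 for H3K36me2, n = 3 for the CTD). The satellite-poor deserts lie at 169 to 199.8 for H3K36me2 and at 102 to 144 for the CTD, where all 6 lists are below the near-gene values.

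The comparison of deserts with near-gene intergenic sequence of the same lists asks whether the mark and the CTD reach chromatin far from genes. For H3K36me2 the answer turned on the satellites. All deserts were lower than near-gene sequence in 4 of 4 lists, by a mean log2 ratio of −0.63 (exact sign-flip permutation test, two-sided, p = 0.125, the smallest that 4 lists allow). In satellite-poor deserts the difference shrank to −0.10 (exact permutation p = 0.25). Near-gene sequence held 199 ± 1.05 peaks per Mbp without UV and 201 ± 1.99 after UV (SD, n = 2), against 175 ± 7.56 and 198 ± 2.2 in satellite-poor deserts.

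The CTD was lower in deserts with or without the satellites. All deserts stood at a log2 ratio of −1.05 to near-gene sequence (lower in 6 of 6 lists, exact sign-flip permutation p = 0.03125, the smallest that 6 lists allow), and satellite-poor deserts at −0.59 (6 of 6 lists, exact permutation p = 0.03125). Near-gene sequence held 181 ± 2.19 CTD peaks per Mbp without UV and 181 ± 0.478 after UV (SD, n = 3), against 126 ± 17.5 and 116 ± 12.9 in satellite-poor deserts. In each set of deserts 8 density comparisons were tested, and the lowest p-value adjusted over the 8 by the Benjamini-Hochberg method was 0.125, so none passed 0.05 after adjustment. The desert values also varied more from list to list than the near-gene values, with an SD of 17.5 against 2.19 for the CTD without UV.

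lncRNA genes lying in the same blocks were closer to the deserts than near-gene sequence was. In satellite-poor blocks they held 180 ± 5.84 H3K36me2 peaks per Mbp without UV and 204 ± 2.24 after UV (SD, n = 2), and the deserts beside them were lower by a log2 ratio of −0.04 in 4 of 4 lists (exact permutation p = 0.125). They held 138 ± 20.2 and 129 ± 16.1 CTD peaks per Mbp (SD, n = 3), with the deserts lower by −0.14 in 6 of 6 lists (exact permutation p = 0.03125). The GC content of these lncRNA genes was 36.2%, against 35.9% in satellite-poor deserts and 41.2% in near-gene sequence.

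Deserts differed from near-gene sequence more in the bases covered than in the number of peaks. H3K36me2 peaks covered 12.6% ± 0.772 of satellite-poor desert bases without UV and 13.7% ± 0.442 after UV (SD, n = 2), against 19.0% ± 0.691 and 17.4% ± 0.523 of near-gene bases. The median peak was 525 bp wide in deserts and 647 bp near genes without UV, and 496 bp and 600 bp after UV. CTD peaks covered 6.47% ± 0.687 and 5.92% ± 0.895 of desert bases (SD, n = 3), against 10.8% ± 1.38 and 11% ± 0.431 near genes. Median fold enrichment was close in both, at 1.88 in deserts and 1.87 near genes for H3K36me2 without UV, and at 1.78 and 1.77 for the CTD. Desert peaks were thus narrower, and fewer for the CTD and for H3K36me2 without UV. Median fold enrichment was taken over called peaks of lists cut at 500000, so it cannot compare the signal of deserts with that near genes.

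Base composition moved with these values. In 10-kb windows grouped by GC content, 15000 satellite-poor desert windows and 73846 near-gene windows fell into 19 shared strata. When near-gene windows were weighted to the GC content of the deserts, the desert to near-gene ratio of H3K36me2 was 1.04 to 1.06 in the 4 lists, a log2 ratio of 0.07 with the direction turned (exact permutation p = 0.125). The CTD ratio was 0.895 to 0.973, a log2 ratio of −0.12 (lower in 6 of 6 lists, exact permutation p = 0.03125, adjusted to 0.188 over 6 comparisons). At matched GC, then, the density in satellite-poor deserts differed from that near genes by 4.89% for H3K36me2 and by −7.72% for the CTD. Single strata at the ends, with few desert windows, went either way: at 47% GC (22 desert windows) the H3K36me2 ratio after UV was 0.829, and at 46% GC (28 desert windows) the CTD ratio was 1.08 without UV and 1.10 after UV. At 29% GC (43 desert windows) the ratio was 1.39 for H3K36me2 and 1.64 for the CTD without UV. After UV it was 1.03 and 0.957. With the satellite-rich deserts included, both remained lower at matched GC, at −0.54 for H3K36me2 and −0.69 for the CTD.

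**Figure D2:**
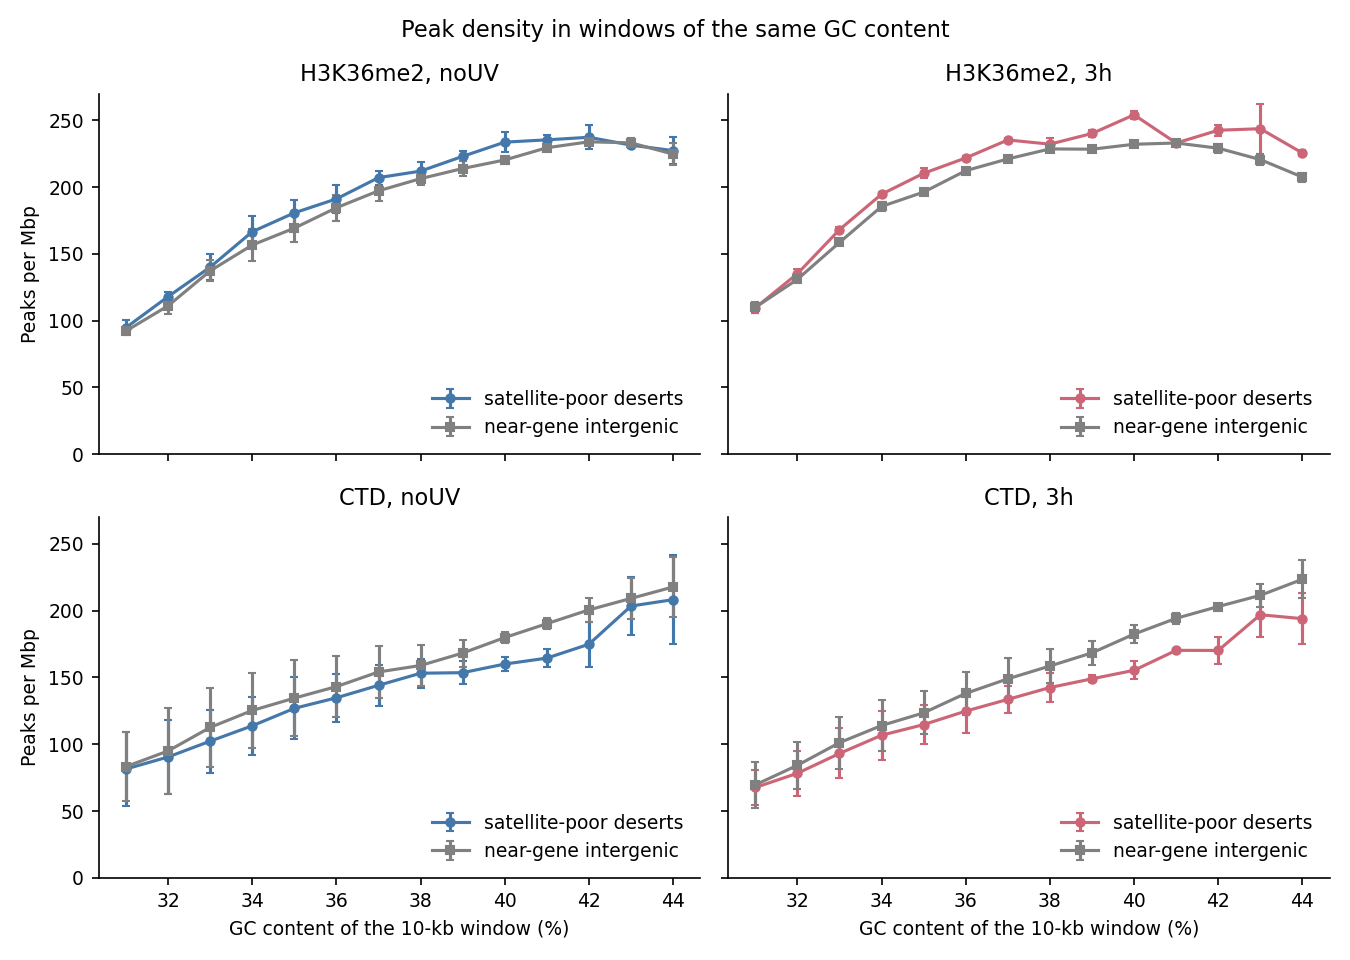
Peaks per Mbp in 10-kb windows against their GC content in percent, for satellite-poor deserts and near-gene intergenic sequence, with points at the mean over lists and bars of 1 SD (n = 2 for H3K36me2, n = 3 for the CTD). In the 14 strata plotted, from 31% to 44% GC, the desert to near-gene ratio was 0.993 to 1.11 for H3K36me2 and 0.838 to 0.983 for the CTD.

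Each desert was also set against its own surroundings, the near-gene intergenic sequence within 2 Mb. Satellite-poor deserts were lower than these flanks by a log2 ratio of −0.14 for H3K36me2 (4 of 4 lists, exact permutation p = 0.125) and −0.29 for the CTD (6 of 6 lists, exact permutation p = 0.03125). The CTD density was below that of the flanks in 155 of 176 satellite-poor deserts with at least 200 kb of usable sequence, and the H3K36me2 density in 115 of 176.

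Distance from coding genes gave a gradient. Without UV the CTD density of intergenic windows without alpha satellite went from 196 ± 6.83 peaks per Mbp within 50 kb of a coding gene to 136 ± 17.5 at 500 to 750 kb and 113 ± 21.6 beyond 1500 kb (SD, n = 3), and after UV from 199 ± 3.74 to 127 ± 12.9 and 102 ± 15.5. H3K36me2 went from 213 ± 0.461 to 181 ± 6.19 and 154 ± 12.7 without UV (SD, n = 2), and from 207 ± 1.68 to 203 ± 1.12 and 182 ± 6.04 after UV. The farthest windows held less than the nearest in all 10 lists. The course of H3K36me2 was not steady: after UV it stood at 222 ± 2.39 at 50 to 100 kb, above the nearest windows, and at 194 ± 1.76 at 300 to 500 kb, below those at 500 to 750 kb. The GC content of the windows fell along with distance, from 42.3% to 35.0%.

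**Figure D3:**
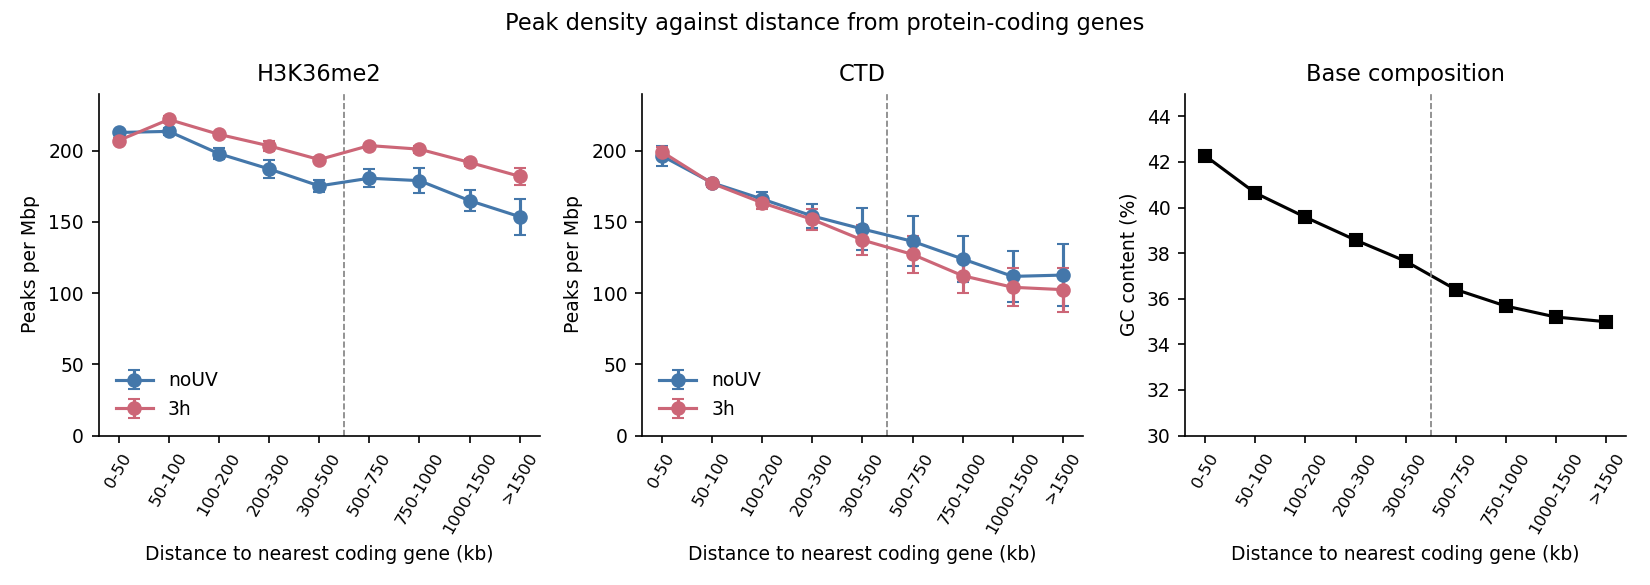
Peaks per Mbp of intergenic windows by bins of distance from the nearest protein-coding gene in kb, with points at the mean over lists and bars of 1 SD (n = 2 for H3K36me2, n = 3 for the CTD), the GC content of the windows in percent at the right, and a dashed line at 500 kb. Without UV, CTD density goes from 196 within 50 kb to 113 beyond 1500 kb and H3K36me2 from 213 to 154, while GC content goes from 42.3% to 35.0%.

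The UV comparison asks how the mark and the CTD were redistributed 3 h after damage. More of the H3K36me2 peaks lay in deserts after UV. In all deserts the density was 122 ± 4.97 peaks per Mbp without UV and 138 ± 1.57 after UV (SD, n = 2), a log2 change of 0.18 with no overlap (exact permutation test over lists, two-sided, p = 0.333, the smallest that 2 against 2 allow). The change in satellite-poor deserts was also 0.18, while near-gene sequence stood at 199 and 201 with overlapping lists. The ratio of satellite-poor deserts to near-gene sequence changed by 0.17 on the log2 scale (exact permutation p = 0.333). The design cannot reach 0.05 for these sums.

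The size of the difference depended on which peaks were counted. Among peaks of −log10 p of 3 or more, satellite-poor deserts held 2684 and 2356 without UV and 3033 and 3108 after UV. Among peaks of −log10 q of 1.3 or more the counts were 3080 and 2523 without UV and 2607 and 3081 after UV, which overlap, and the log2 change was 0.02. The share of desert peaks that overlapped a peak of the other replicate was 60.6% ± 3.25 without UV and 64.8% ± 0.359 after UV (SD, n = 2), without overlap, against 67.2% ± 1.37 and 67.4% ± 0.849 near genes.

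Desert by desert, 199 deserts had the 200 kb of usable sequence needed for a fit. They were tested with 5128 windows of 500 kb from the rest of the autosomes in limma, on log2 peaks per Mbp. Of the 199 deserts, 20 rose after UV at an adjusted p under 0.05 and 0 fell, where 2.03% of all 5327 features rose and 6.63% fell (in limma, 73 of the 199 had an unadjusted p under 0.05, or 36.7%, against 31.7% of all features). The 20 make 10.1% of the deserts. Among the 199, 166 had a positive change (83.4%, against 53.1% of all features), with a median of 0.17 against 0.02. In 114 of the 199 both lists after UV lay above both lists without UV, and in 13 they lay below, where 30.9% and 29.5% of all features did so. These counts rest on 4 lists: no desert was called without limma's variance trend, among peaks of −log10 p of 2 or more, with the replicate number as a block, or when replicate 1 of either condition or noUV replicate 2 was left out, and the 1 called when 3h replicate 2 was left out was not among the 20.

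Of the 20 deserts that rose, 19 were satellite-poor. They lay, with the remaining desert, on 10 chromosomes, had log2 changes of 0.26 to 0.49 and 34.2% to 37.5% GC, and held 18.7 Mbp of usable sequence. The desert with the largest rise among them was chr7:9252962-10431942, between NXPH1, which encodes a secreted ligand of α-neurexins, and NDUFA4, which encodes a mitochondrial respiratory-chain protein. It held 195 and 194 H3K36me2 peaks per Mbp without UV and 260.4 and 287 after UV (log2 change 0.49, SE 0.06, limma adjusted p = 0.0320). Next was chr2:122267854-123525286, between TSN, which encodes the nucleic acid-binding protein translin, and CNTNAP5, which encodes a neuronal cell-adhesion protein. Its values were 213 and 227 without UV and 306 and 295 after UV (log2 change 0.45, SE 0.06, limma adjusted p = 0.0348). In neither desert did the conditions overlap.

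The largest fitted change of all, 1.80 (SE 0.40, limma adjusted p = 0.0482), belonged to the satellite block between ANKRD30B and ROCK1. It rests on the 3, 1, 8 and 7 peaks given above and is a change between very small counts.

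No desert passed the threshold for a fall, and the 3 with the largest falls among those whose lists did not overlap are given with no test. In the satellite block between ZNF716 and ZNF722 the counts were the 6, 8, 4 and 3 given above. The block chr22:1-15028191, before the olfactory receptor gene OR11H1, held 36 and 35 H3K36me2 peaks without UV and 26 and 23 after UV. The desert chr11:116004958-116248169, between the cell-adhesion gene CADM1 and the splicing gene BUD13, held 38 and 53 without UV and 36 and 27 after UV. It was richer in GC, at 44.4%, than the deserts that rose.

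**Figure D4:**
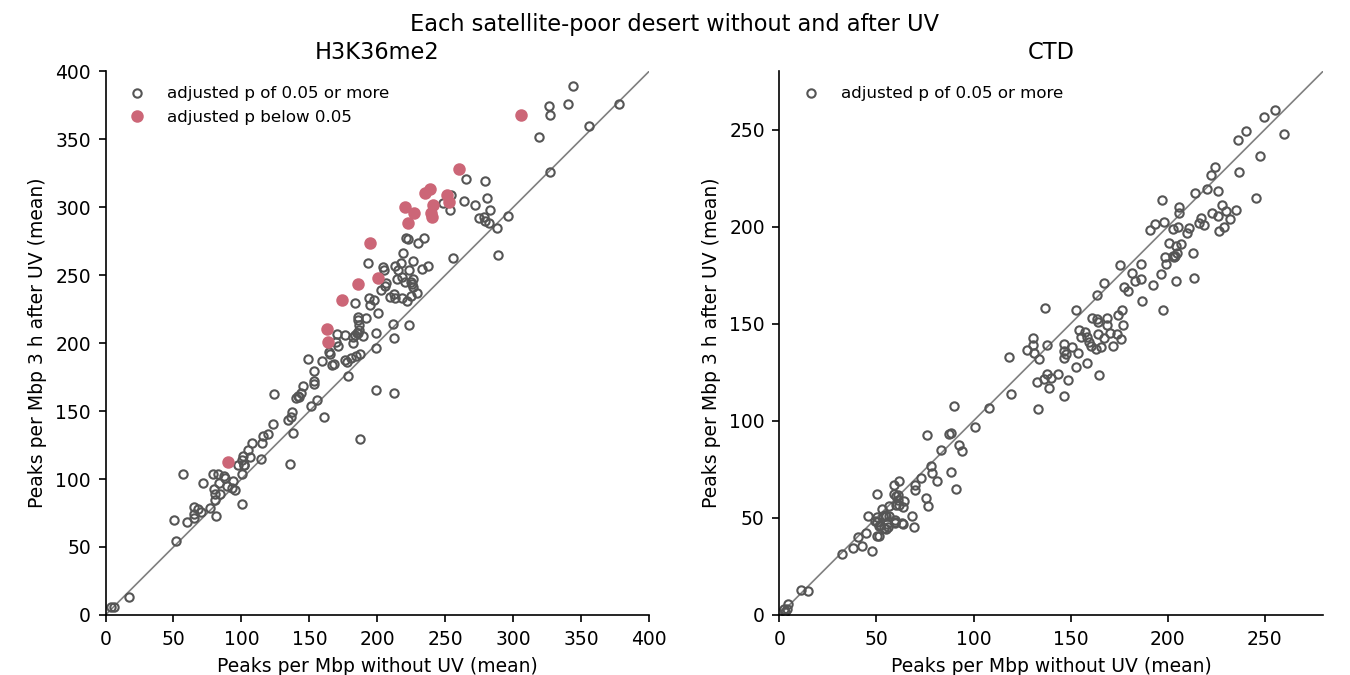
Mean peaks per Mbp after UV against mean peaks per Mbp without UV in the 176 satellite-poor deserts tested, for H3K36me2 and the CTD, with the line of equal values and filled points for a limma adjusted p under 0.05. For H3K36me2, 19 of the 176 are filled and all of these lie above the line, and for the CTD 0 are filled.

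The UV change was also read against GC content. Across the 176 satellite-poor deserts Spearman's rho between the H3K36me2 change and GC content was −0.22, as a description. In windows at the GC content of the satellite-poor deserts, H3K36me2 density after UV was 13.8% higher in deserts and 13.2% higher in near-gene intergenic sequence, and the desert to near-gene ratio changed by 0.01 on the log2 scale (exact permutation p = 1). Near-gene sequence of the same GC content thus held nearly the same difference as the deserts. The lists themselves differed in this respect: near-gene windows of 34% GC held 0.754 and 0.643 of the density of 44% GC windows in the lists without UV, and 0.917 and 0.872 after UV. The 4 lists had the same order by this ratio as by their density in satellite-poor deserts, and no other measure of the lists' GC bias was tested.

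CTD peaks showed no shift towards deserts after UV that exceeded the spread between replicates. The density in all deserts was 91.0 ± 12.1 peaks per Mbp without UV and 84.2 ± 9.12 after UV (SD, n = 3), with overlapping lists and a log2 change of −0.11 (exact permutation test over lists, two-sided, p = 0.5, where 3 against 3 could reach 0.1). The log2 change in satellite-poor deserts was −0.11 as well. Near-gene sequence stayed at 181 in both conditions. With noUV replicate 3 left out the change in satellite-poor deserts was −0.01, and with 3h replicate 3 left out it was −0.02. Among peaks of −log10 p of 2 or more it was 0.09, so its direction was not stable. The CTD controls were pooled at 3 h and matched without UV, so UV and control handling cannot be told apart in this comparison.

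By limma, 0 of 199 deserts passed an adjusted p of 0.05 for the CTD in either direction, where 0% of all 5327 features passed higher and 0% lower. At an unadjusted p under 0.05 there were 5 of 199 deserts, and 51 of the 5327 features. In 1 desert all 3 lists after UV lay above all 3 without UV, and in 13 they lay below, where 1.82% and 1.99% of all features did so. The median change of the deserts was −0.11, against 0.00 over all features, and 54 of 199 were positive (27.1%, against 50.3%). In the 20 deserts whose H3K36me2 rose, the CTD change had a median of −0.09 and was positive in 4.

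These CTD changes are given with no test. The desert whose lists were higher after UV was chr12:97453781-98015578, between NEDD1, which recruits γ-tubulin to centrosomes, and TMPO, which encodes lamina-associated polypeptides. Its CTD peaks numbered 32, 27 and 36 without UV and 37, 40 and 39 after UV. Of the falls, chr9:11113003-12185438, between the receptor phosphatase gene PTPRD and the melanin-synthesis gene TYRP1, had 30, 28 and 35 CTD peaks without UV and 19, 20 and 22 after UV. The desert chr13:70608494-70937965, between KLHL1 and DACH1, had 28, 27 and 35 without UV and 23, 25 and 16 after UV. The desert chr3:144548720-145535138, between DIPK2A and the collagen-modifying gene PLOD2, had 60, 65 and 63 without UV and 56, 43 and 39 after UV. H3K36me2 in the PTPRD to TYRP1 desert went the other way, at 35 and 36 peaks without UV and 49 and 44 after UV.

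The CTD lists differed in their own GC dependence within each condition. Near-gene windows of 34% GC held 0.396, 0.599 and 0.768 of the density of 44% GC windows in noUV replicates 1, 2 and 3, and 0.601, 0.557 and 0.386 in 3h replicates 1, 2 and 3. The order of the 6 lists by this ratio was also their order by density in satellite-poor deserts. At the GC content of the deserts, CTD density after UV differed by −7.40% in deserts and by −5.12% near genes, and the ratio changed by −0.04 (exact permutation p = 0.6).

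The deserts varied far more among themselves than between conditions. Over the 199 tested deserts the mean H3K36me2 density ran from 0 to 377 peaks per Mbp with a median of 187, and the CTD density from 0 to 258 with a median of 132. The order of the deserts was shared by replicates: over the 176 satellite-poor deserts Spearman's rho was 0.96 between the H3K36me2 lists without UV and 0.98 between those after UV, and 0.88 to 0.93 between CTD lists of a condition. Between conditions it was 0.96 for H3K36me2 and 0.98 for the CTD. Each pair of values compared here shares the sequence and mappability of the desert.

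The highest H3K36me2 density among satellite-poor deserts of 500 kb or more was at chr10:64125129-65412456, between REEP3, which shapes the endoplasmic reticulum, and CTNNA3, an α-catenin gene, with 301 and 310.4 peaks per Mbp without UV and 371 and 364 after UV. The desert chr17:70680045-71621019, between the potassium channel gene KCNJ2 and SOX9, a master regulator of cartilage known to have distant enhancers, came next with 317, 321, 347 and 356. Then came chr11:23360475-23996969, between CCDC179 and LUZP2, with 279, 279, 324 and 315. In these 3 deserts both lists after UV were above both without UV, as in 110 (62.5%) of the 176 satellite-poor deserts tested. The REEP3 to CTNNA3 desert was among the 20 that rose in limma.

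Among satellite-poor deserts of 500 kb or more, the 2 with the lowest H3K36me2 densities lay in sequence of many related gene segments or copies. The desert chr14:106030199-107043718, beyond TMEM121 at the end of the chromosome, is the immunoglobulin heavy-chain region, whose variable segments are annotated by GENCODE under types other than protein-coding, and it held 83 pseudogenes. It had 3, 3, 6 and 3 H3K36me2 peaks but 56 to 82 CTD peaks in each list. The desert chr9:61953031-64782100, between CNTNAP3C and FOXD4L5, has many near-identical copies and 53 pseudogenes, so its reads may be shared among copies. It had 8 to 11 H3K36me2 peaks and 15 to 32 CTD peaks.

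The 3 highest CTD densities among satellite-poor deserts of 500 kb or more were at 41.0% to 43.4% GC, above the 35.9% of satellite-poor deserts as a whole. These were chr7:67789006-69098295, between SPDYE21 and the neurodevelopmental gene AUTS2 (43.4% GC, 223 to 304 CTD peaks per Mbp), chr12:126162378-127767169, between TMEM132B and TMEM132C (41.0% GC, 233 to 247), and chr18:77777901-78479817, between the galanin receptor gene GALR1 and the zinc-finger gene SALL3 (41.7% GC, 198 to 265). H3K36me2 was dense in all 3 as well, at 265 to 302 peaks per Mbp.

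The 3 lowest CTD densities among satellite-poor deserts of 500 kb or more were all on chromosome 13. In chr13:88196273-90898620, between SLITRK5 and the glypican gene GPC5, the 6 CTD lists held 4, 1, 12, 3, 1 and 4 peaks in 1.90 Mbp, while the 4 H3K36me2 lists held 191, 218, 245 and 235. In chr13:80841127-83377204, between the signalling inhibitor gene SPRY2 and SLITRK1, they held 1, 4, 9, 9, 3 and 5 CTD peaks and 125, 110, 134 and 133 H3K36me2 peaks. In chr13:84382475-85292789, between SLITRK1 and SLITRK6, they held 3, 1, 5, 3, 2 and 2 CTD peaks and 89, 92, 116 and 83 H3K36me2 peaks. The SLITRK genes encode neuronal membrane proteins with leucine-rich repeats. The near absence of CTD peaks was found in every CTD list and in no H3K36me2 list.

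This was not a property of the deserts alone. Across the 28 Mb from position 82000001 to 110000000 of chromosome 13, a segment chosen after its values were seen, the CTD lists held 2.37 to 8.13 peaks per Mbp in deserts, 6.18 to 17.7 in near-gene intergenic sequence and 8.68 to 17.8 in coding genes. On the rest of the chromosome they held 53.2 to 81.1, 122 to 142 and 133 to 161. H3K36me2 in the segment was 116 to 134 in deserts, 153 to 175 near genes and 124 to 137 in coding genes, against 90.3 to 108, 150.2 to 164 and 103 to 107 on the rest. Among 1328 autosomal windows of 2 Mb, 13 had under 25 CTD peaks per Mbp and at least 75 H3K36me2 peaks per Mbp, and all 13 were on chromosome 13. The segment held 5 deserts. The assays come from WT and ASH1L-KO cells, and whether the copy number of the segment differs between them was not tested. With chromosome 13 left out, satellite-poor deserts stood at a log2 ratio of −0.05 to near-gene sequence for H3K36me2 (exact permutation p = 0.5) and −0.52 for the CTD (6 of 6 lists, exact permutation p = 0.03125).

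The CTD density of a desert followed that of its neighbourhood. Over the 176 satellite-poor deserts Spearman's rho between the density of a desert and that of its flanks was 0.93 for the CTD and 0.72 for H3K36me2, and without the 5 deserts of the chromosome 13 segment it was 0.93 and 0.70. By CTD density, 6 deserts lay under 20 peaks per Mbp, 60 at 20 to 100 and 110 at 100 or more, and 8 lay between 90 and 120. The 60 intermediate deserts had a median of 56.8 CTD peaks per Mbp with 84 in their flanks, and the 110 upper deserts had 174 with 202 in their flanks. H3K36me2 had a median of 110.3 in the 60 and 231 in the 110. Even so, 21 of the 60 had over 150 H3K36me2 peaks per Mbp. Over the 176 deserts the rho between H3K36me2 and CTD densities was 0.70, and that with GC content was 0.26 for H3K36me2 and 0.43 for the CTD. These are descriptions over deserts measured in the same lists.

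**Figure D5:**
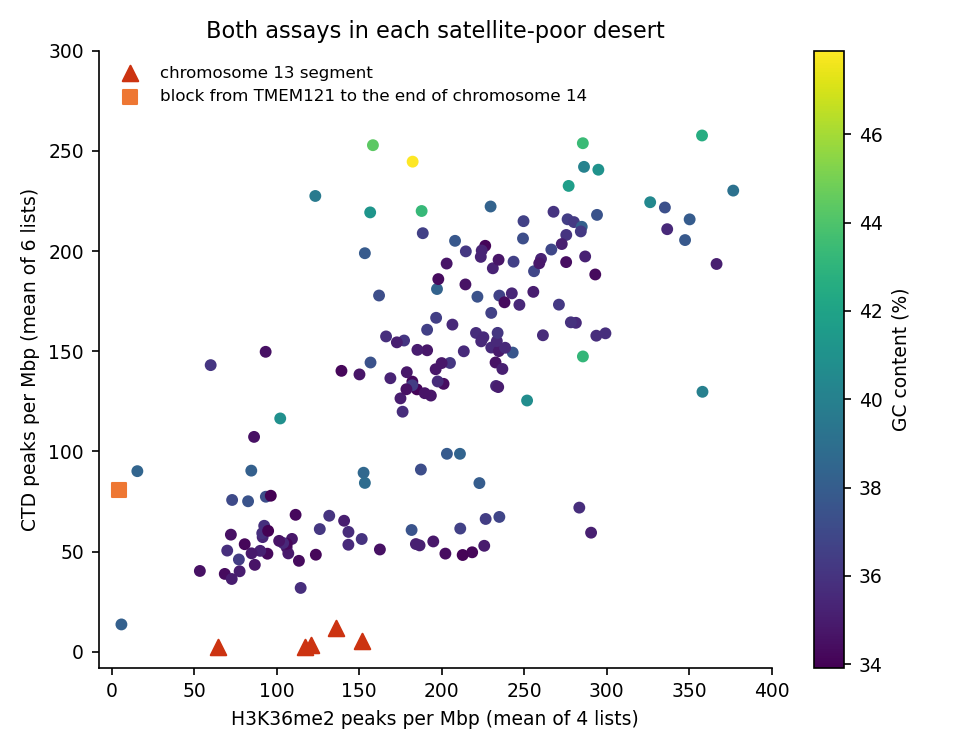
Mean CTD density (6 lists) against mean H3K36me2 density (4 lists), both in peaks per Mbp, with each point 1 of the 176 satellite-poor deserts tested, coloured by GC content in percent. Triangles mark the 5 deserts of the chromosome 13 segment, at H3K36me2 densities of 64.2 to 152 and CTD densities of at most 12, and a square marks the desert beyond TMEM121.

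Peaks of the assays overlapped in part in deserts, and the overlap that coverage alone would give was not computed. In satellite-poor deserts 35.0% ± 0.347 of H3K36me2 peaks without UV and 32.6% ± 0.135 after UV had a CTD peak of any replicate of that condition over them (SD, n = 2), against 41.6% ± 0.373 and 39.9% ± 0.298 near genes. The reverse share, of CTD peaks under H3K36me2 peaks, was 38.2% ± 6.90 and 43.2% ± 5.05 in deserts (SD, n = 3). Near genes it was 40.1% ± 3.57 and 37.2% ± 1.93, and the conditions overlapped in both classes. Taken within each list, the desert to near-gene ratio was 0.878 to 1.04 without UV and 1.09 to 1.24 after UV. Single CTD lists covered 5.09% to 7.19% of satellite-poor desert bases and 9.61% to 12.3% of near-gene bases. The shares under CTD peaks in deserts and near genes therefore have different baselines.

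Merging overlapping peaks over lists gave 48583 H3K36me2 sites in satellite-poor deserts, of which 22.1% had a peak in all 4 lists (25.8% near genes). Sites seen in both lists after UV and in neither without UV numbered 2809, against 1385 the other way round, a ratio of 2.03. Near genes the numbers were 10533 and 11475, a ratio of 0.918. These site counts were not matched for GC content, unlike the window densities above. For the CTD there were 65140 desert sites, of which 0.665% had a peak in all 6 lists (2.15% near genes), and the sites of a single condition were even, at 339 after UV and 335 without UV. By the looser measure of peaks that overlapped a peak of at least 1 other replicate of the condition, the CTD share in deserts was 38.1% ± 4.29 without UV and 40.2% ± 3.25 after UV (SD, n = 3), against 48.2% ± 2.17 and 52.6% ± 0.992 near genes.

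Within deserts, peaks lay on sequence richer in GC than its surroundings. H3K36me2 peaks in satellite-poor deserts had 44.4% ± 0.0650 GC without UV and 44.2% ± 0.101 after UV (SD, n = 2), above the 35.9% of the desert sequence in 4 of 4 lists (exact permutation p = 0.125), and 10.4 ± 0.204 and 9.99 ± 0.0189 CGs per kb against 5.97. CTD peaks had 40.7% ± 2.15 and 41.3% ± 1.53 GC (SD, n = 3), above the desert sequence in 6 of 6 lists (exact permutation p = 0.03125), and 8.01 ± 1.03 and 8.19 ± 0.799 CGs per kb. Neighbouring thymines are where UV most often forms pyrimidine dimers. TT or AA dinucleotides stood at 226 per kb of desert sequence. Desert H3K36me2 peaks held fewer, at 170.6 ± 0.132 per kb without UV and 171.7 ± 0.772 after UV (SD, n = 2). Desert CTD peaks also held fewer, at 194 ± 14.2 without UV and 190.0 ± 9.76 after UV (SD, n = 3). The CTD values were thus below the desert sequence in both conditions (3h against noUV, exact permutation p = 0.8). Whether these counts differ from those of sequence of the same GC content was not tested.

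Alu elements are the commonest GC-rich repeat of the human genome and bring CGs into AT-rich sequence. A pair of words of the Alu consensus, GCCTGTAATCCCAGC and GGCTGGAGTGCA, was counted on both strands; they do not overlap each other. The letters were read from Alu copies that lie under H3K36me2 peaks in deserts, so the counts are descriptions and not independent of those peaks. They occurred 65.7 and 73.7 times per Mbp of satellite-poor desert sequence, and 207 to 225.4 and 186 to 203 times per Mbp of desert H3K36me2 peaks. The ratios over the 4 lists were 3.16 to 3.43 and 2.52 to 2.75. In desert CTD peaks they occurred 99.3 to 139 and 97.2 to 128 times per Mbp. Near genes the words were commoner in the sequence itself, at 162 and 176 per Mbp, and H3K36me2 peaks there held 264 to 290.0 and 242 to 271 per Mbp. Whether reads of such peaks came from other Alu copies was not tested.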

How the data were processed

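H3K36me2 and CTD ChIP-seq in U2OS cells was analysed from 10 peak lists. The authors trimmed reads with Trim Galore 0.6.5, mapped them to hg38 without chromosome Y with BWA 0.7.17-r1188, kept a mapping quality of 30 or more, removed duplicates (Picard), blacklisted regions and other contigs (bedtools 2.29.2, SAMtools 1.7), and ran MACS2 2.2.7.1 in broad mode (p 0.01) on every replicate against input (H3K36me2) or empty-vector ChIP (CTD). Inputs and the CTD 3 h controls were pooled and the CTD noUV controls matched. The deposited lists hold, for each peak, a fold enrichment ratio and, as −log10 values, its p and q; no per-sample column was left unused (0). Read depth is not in them, so no counting interval was given.

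Deserts were built from GENCODE release 44 with Python 3.11.15, NumPy 2.4.6, pandas 2.3.3, SciPy 1.17.1 and bedtools 2.31.1; matplotlib 3.10.9 drew the figures. GC was read in 10-kb windows that lay at least 90% in a class, and alpha satellite from windows whose self-match at the repeat length was 45% or more. Strata needed 20 windows. Densities were compared by exact permutation tests over lists. Single deserts of at least 200 kb were fitted with limma 3.58.1 (R 4.3.3) on log2 peaks per Mbp with an offset of 0.5 peaks, a trended prior and no replicate block, and p-values were adjusted over all 5327 features. The fit was tested on simulated data. Same-numbered replicates did not deviate together (r 0.07 for H3K36me2, and −0.17, 0.08 and −0.37 for the CTD).

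Named deserts were the 3 with most usable sequence, the 3 densest and 3 sparsest of each assay among 105 satellite-poor deserts of at least 500 kb, and the 3 largest changes in each direction past the threshold or, where none passed, without overlap. Among these, 1 desert is not reported here, nor are 2 of the sites chosen for their sequence. The deserts, lists and rules were chosen with earlier results of these data known. The split by alpha satellite, the flanks, the chromosome 13 segment and the Alu words were chosen after seeing the data. Distance, lncRNA handling, peak strength, recurrence, comparison class, offset, trend, centring and left-out replicates were varied.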

Additional observations from a re-analysis of the deposited data

How the results depend on the processing

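The H3K36me2 change in deserts after UV kept its direction in 30 of 30 alternatives, between 0.01 (−log10 q of 1.3 or more) and 0.33 on the log2 scale, never below an exact p of 0.333, and CTD peaks of that q were too few to give a value. The log2 ratio of H3K36me2 in deserts to near-gene sequence reversed in satellite-poor deserts with the top quartile by fold enrichment (0.065) and in GC strata (0.069). The CTD change after UV reversed for peaks sharing 50% of their length with another replicate (0.065), at −log10 p of 2 or more (0.077, satellite-poor 0.092) and of 3 or more (0.39, satellite-poor 0.33), and the change of its ratio to near-gene sequence at −log10 p of 3 or more (0.39, satellite-poor 0.33). Leaving out a replicate left the CTD ratio to near-gene sequence at −1.11 to −1.0 (satellite-poor −0.56, −0.60 and −0.64 without noUV replicates 1, 2 and 3, and −0.60, −0.59 and −0.54 without 3h replicates 1, 2 and 3) and to lncRNA genes at −0.63 to −0.62 (satellite-poor −0.15 to −0.14), with p 0.0625, the smallest that 5 lists allow. The last ratio in satellite-poor deserts at −log10 p of 3 or more was −0.31 and no longer had an unadjusted exact permutation p under 0.05. The cause was not tested. The count of deserts called for H3K36me2, 20 of 199 (10.1%, against 8.65% of all features in either direction), was 0 with −log10 p of 2 or more, without the variance trend and with the replicate block (0.0939%, 4.39% and 0.0375% of all features), and leaving out a replicate gave 0 to 1. It was 56 with centring (28.1%, against 21.5%) and 151 with recurring peaks only (133 up and 18 down, 75.9%, against 62.6%), and all 20 were among both. It was 28 with an offset of 5 peaks (14.1%, against 12.9%), 23 of 128 at 500 kb (18.0%, against 12.3%) and 29 for bases covered (22 up and 7 down, 14.6%, against 32.4%). For the CTD, recurring peaks gave 14 deserts (5 up and 9 down, 7.04%, against 8.45%), from lists that each draw on the other replicates. The replicate block changed no other call, and the densities were the same, at 0.18 for H3K36me2 and −0.11 for the CTD. CTD noUV replicate 1 deviated most like 3 h replicate 3 (r 0.42). Lists cut at 500000 peaks, with no read numbers, limit what a density can show: it is a share of a list, not an amount.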

Other observations

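Across the lists, the CG content of desert H3K36me2 peaks after UV was 9.99 per kb against 10.4 without UV, and near-gene peaks went from 12.6 to 11.5. TT or AA dinucleotides in near-gene H3K36me2 peaks went from 156 to 160.3 per kb. None of these differences can pass 0.333, the smallest exact permutation p for 2 against 2.

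Spearman's rho between the density of a desert and its usable sequence was −0.06 for H3K36me2 and −0.26 for the CTD over the 176 satellite-poor deserts, and −0.33 and −0.46 over all 199 tested, as a description. Usable sequence of single deserts ran from 655 bp to 5.12 Mbp.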
